A study of Mus musculus with 2 samples.

Results

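A stretch of 21133 bp on the plus strand of mouse chromosome 1 (mm9 chr1:138566251-138587383) carried 270 overlapping transcripts, out of 110003 in a pooled list of RNAs from mouse embryonic stem cells. The members are the plus-strand transcripts that overlap this interval, and the interval was chosen on measured values, namely the number of transcripts in it and the near-even mix of 2 kinds of names. Those 2 properties are therefore given as description. The list falls into 79052 loci when overlapping same-strand transcripts are put together, and 3 of these held more transcripts. Names starting with BROAD numbered 142 (52.6%), names starting with WHITEHEAD 125 (46.3%) and names starting with U 3 (1.11%), and no FT name was present. The sources used here do not say what the prefixes stand for.

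The RNA came from V6.5 cells, a line of mouse embryonic stem cells kept on a layer of irradiated mouse embryonic fibroblasts, and the share of feeder RNA was not tested. One library was made from polyadenylated RNA and 1 from total RNA freed of ribosomal RNA, both without any further treatment named in the labels, and both marked the strand by dUTP in the second cDNA strand. The pooled list separates neither library, so nothing below compares them, and there is no replicate error to set beside a value. The list has positions, exon blocks and a score per transcript and no read counts, so depth is unknown, and the cell type could not be checked against marker genes. Members share exons and overlap one another, so they are not independent observations.

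Long noncoding RNAs are transcribed, capped, spliced and mostly polyadenylated like messenger RNAs, but are not known to be translated into a functional protein. A spliced RNA is made by joining the last base of 1 exon, at the donor site of the intron, to the first base of another, at the acceptor site. Introns mostly begin with GT and end with AG. One gene can give several isoforms through alternative starts, skipped exons, neighbouring donors or acceptors, and alternative 3′ ends.

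The locus matched the annotated long noncoding gene Gm19705 (ENSMUSG00000097113.7), a plus-strand lincRNA gene of GENCODE M21 at GRCm38 chromosome 1, 136670769 to 136690804. The name rests on structure alone: a run of intron, exon and intron lengths was searched for among annotated transcripts of this chromosome and strand, and no position was converted between builds. Of the 263 members with at least 3 exons, 38 (14.4%) held a run that occurs in this gene and in no other. These were 14 BROAD, 23 WHITEHEAD and 1 U transcripts, against 0 of 263 when the minus strand of the annotation was searched. The longer run of intron, exon, intron and exon, with both exons internal, matched 0 of the 239 members that have one. It could not match, since each such run of Gm19705 holds an intron of 2195, 1928 or 436 bp. The first 2 of these lengths were in no member, and the last only in a U member with 2 exons. The name therefore rests on the shorter run. The run of a 6185 bp intron, a 94 nt exon and a 7181 bp intron was present in 12 BROAD and 6 WHITEHEAD members. The run of a 5270 bp intron, a 67 nt exon and a 1726 bp intron was present in 17 WHITEHEAD members, 1 BROAD member and 1 U member. A run with a 5040 bp intron in its place was present in 1 BROAD member. Gm19705 has 4 annotated transcripts with 10 introns, and 7 of these had an intron of the same length among the members. For all 7 introns the difference between the mm9 and the GRCm38 position was the same. For the other 18 of the 25 member introns, this gene has no annotated intron of the same length. Some of them share a splice site with a matched intron. The 4207 bp intron, for example, has the acceptor of the matched 4202 bp intron.

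Coding genes lie far from Gm19705 in the annotation. The nearest before it is Zfp281, a zinc finger transcription factor gene on the same strand that ends 40716 bp away. The nearest after it is Nr5a2, a nuclear receptor gene on the minus strand whose 3′ end lies 151767 bp away. The next gene of any kind is Platr22, a plus-strand lincRNA gene that starts 5407 bp after the end of Gm19705. In the list, the plus-strand transcripts nearest to the interval ended 2350 bp before it (BROAD31296) and began 5269 bp after it, and 2 of the 10 transcripts with 3 or more exons listed next downstream matched Platr22 by structure.

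The exons that recur across members can be read from the annotated transcripts of Gm19705 in GRCm38. The exons of 145 and 144 nt are shown for the close pairs of splice sites at their edges, and those of 94 and 67 nt because they are the internal exons in the most members. The 145 nt exon (GRCm38 chr1:136675139-136675283, plus strand, mm9 138571716 to 138571860) is printed with its first 3 bases in capitals, since a second acceptor of the members lies 3 bp downstream. The 144 nt exon (GRCm38 chr1:136677123-136677266, mm9 138573700 to 138573843) has its first 2 bases in capitals, where a second acceptor lies 2 bp downstream, and its last 5 bases in capitals, where a second donor lies 5 bp upstream. The 94 nt exon (GRCm38 chr1:136681469-136681562, mm9 138578046 to 138578139) was in 188 members. The 67 nt exon (GRCm38 chr1:136688744-136688810, mm9 138585321 to 138585387) was in 167.
exon of 145 nt: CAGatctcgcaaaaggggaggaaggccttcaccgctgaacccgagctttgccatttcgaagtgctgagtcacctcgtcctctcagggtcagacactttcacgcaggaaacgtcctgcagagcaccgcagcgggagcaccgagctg
exon of 144 nt: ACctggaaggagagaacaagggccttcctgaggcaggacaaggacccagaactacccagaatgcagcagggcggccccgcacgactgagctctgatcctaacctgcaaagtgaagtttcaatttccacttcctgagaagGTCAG
exon of 94 nt: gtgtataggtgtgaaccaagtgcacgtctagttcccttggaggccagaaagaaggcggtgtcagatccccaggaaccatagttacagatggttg
exon of 67 nt: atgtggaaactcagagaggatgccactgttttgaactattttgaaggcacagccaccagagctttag

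The letters at these edges were as follows. The 145 nt exon begins with CAG, so an intron that ends 3 bp further downstream ends with AG. The last 5 bases of the 144 nt exon are GTCAG, so an intron that starts 5 bp earlier begins with GT. The first 2 bases of the 144 nt exon are AC, so an intron that ends 2 bp further downstream ends with AC.

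**Figure D1:**
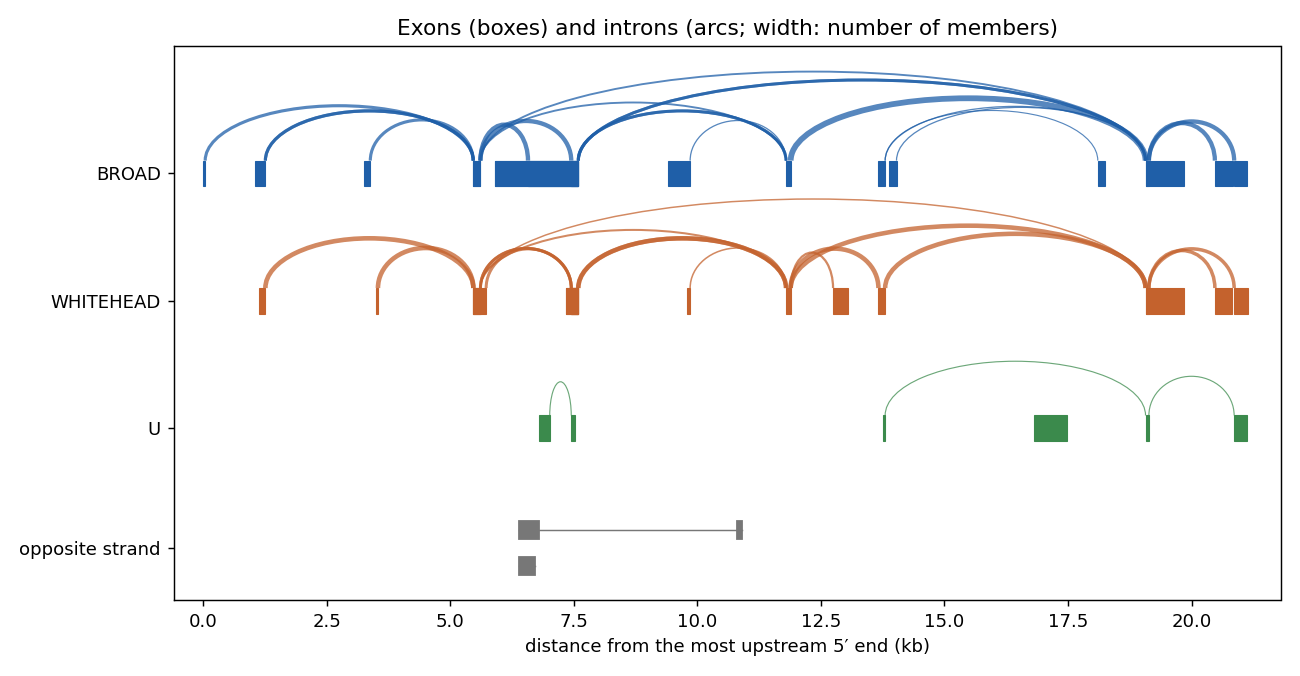
Exons (boxes) and introns (arcs, wider with more members) of the 270 members by name prefix, with the 2 opposite-strand neighbours, against distance in kb from the most upstream 5′ end. The exons of 94, 67 and 773 nt are in both prefixes and no first exon is, and long BROAD exons lie over the 403 nt and 332 nt exons of the opposite strand but not over that of 111 nt.

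The members drew on 25 distinct introns with 15 donors and 12 acceptors, and on 38 distinct exons that fall into 16 separate stretches, 5726 bp in all. Introns ranged from 436 to 13460 bp with a median of 4202 bp. BROAD names used 19 introns and WHITEHEAD names 16, and 11 were in both. This was 57.9% of the BROAD introns (Wilson 95% interval 36.3 to 76.9%) and 68.8% of the WHITEHEAD introns (44.4 to 85.8%). In the rest of the list 14.4% of 7043 BROAD introns (13.6 to 15.2%) and 40.8% of 2476 WHITEHEAD introns (38.9 to 42.8%) were shared. The locus was chosen for holding both prefixes in near-even numbers and the rest of the list was not. Higher shares in the locus are therefore partly built into the choice. These shares were not tested against each other, because introns of 1 locus are not independent, and the intervals cover counting error only. Of the U introns, 2 of 3 were also in BROAD or WHITEHEAD names.

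The first exons differed between the prefixes. Multi-exon members had 13 separate 5′ ends, and no 5′ end was shared between prefixes. The first exon in the most BROAD members was one of 208 nt at 138567302 (60 members). In WHITEHEAD names a 128 nt exon at 138567382 was in 52 members, and no other first exon was in more. These 2 exons lie 80 bp apart at the 5′ end and end at the same donor, 138567509. The most upstream start, 138566251, was a 41 nt exon in 30 BROAD members and in no WHITEHEAD member. A 126 nt exon at 138569507 also started 30 BROAD members, and a 38 nt exon at 138569750 started 52 WHITEHEAD members. The last 2 are separate exons with different donors. All of these first exons joined 1 hub, an exon near 138571716.

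Starts inside the locus were listed in fewer members, which is a count of listed combinations and not of RNA. BROAD names began at 138572151 in 12 members, with an exon of 1688 or 1693 nt, at 138575660 in 3, at 138579914 in 4 and at 138580132 in 3. WHITEHEAD names began at 138573595 in 14 members and at 138576045 in 7. The pair at 138575660 and 138576045 had different 5′ ends, 385 bp apart, and 1 donor, 138576104.

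The 3′ ends were largely shared. BROAD names ended at 138586093, 138587091 and 138587379 in exactly 47 members each, and WHITEHEAD names at 138586093, 138587073 and 138587383 in exactly 36 each. The first of these positions was identical in both prefixes, and the other 2 were 18 and 4 bp apart. All 3 ends belong to alternative last exons that follow the 138585321 acceptor. In the first, the exon ran on to 773 nt without splicing. In the others, the 67 nt exon was spliced over 1336 bp to an exon of 368 or 350 nt, or over 1726 bp to an exon of 266 or 270 nt. A further 17 WHITEHEAD members ended at 138579304, 858 bp of intron after the 94 nt exon, and 1 BROAD member ended at 138584490. The bar plot of members per end shows these equal counts.

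**Figure D2:**
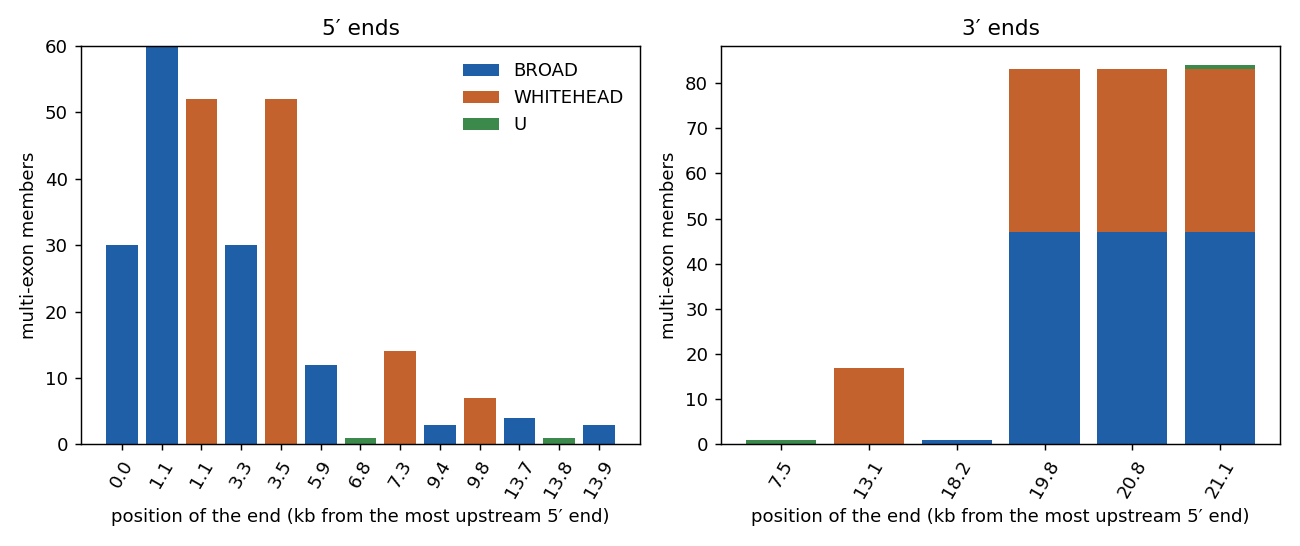
Number of multi-exon members at each cluster of 5′ ends (left) and 3′ ends (right), stacked by prefix, with positions in kb from the most upstream 5′ end. Every 5′ end is of 1 prefix, while the 3 downstream 3′ ends hold 47 BROAD and 36 WHITEHEAD members each.

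The last exon of the 1726 bp intron is annotated with lengths of 268 and 266 nt. The 268 nt form (GRCm38 chr1:136690537-136690804, plus strand) is printed with the letters AATAAA in capitals, the hexamer known as the commonest signal for cleavage and polyadenylation. Searched on the transcribed strand only, it occurs 3 times, of which 2 overlap, and the last copy starts 23 nt before the 3′ end. Of 141672 GENCODE transcripts of at least 50 nt, 26.6% hold AATAAA in their last 50 nt. A match is a description of the letters and not evidence of use.
last exon of 268 nt: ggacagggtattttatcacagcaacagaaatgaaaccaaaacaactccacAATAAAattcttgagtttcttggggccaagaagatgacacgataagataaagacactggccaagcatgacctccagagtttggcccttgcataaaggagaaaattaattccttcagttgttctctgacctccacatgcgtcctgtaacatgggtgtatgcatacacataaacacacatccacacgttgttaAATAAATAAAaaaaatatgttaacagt

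Splicing in the middle of the locus used close pairs of sites. At the hub exon, the acceptor 138571716 was in 90 BROAD members and in no WHITEHEAD member. The acceptor 3 bp downstream, 138571719, was in 30 BROAD and 104 WHITEHEAD members. At the donor pair 138573838 and 138573843, each site was in 54 BROAD and 49 WHITEHEAD members, an exact tie in both prefixes. The donor pair 138571860 and 138571862 and the acceptor pair 138573700 and 138573702 were each 2 bp apart, and the downstream site of each was in WHITEHEAD names only (28 members). These 2 downstream sites always occurred together, in an intron of 1839 bp, the same length as the intron between the 2 upstream sites.

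Single exons separated the prefixes further. The 94 nt exon was in 69 of 142 BROAD members (48.6%) and in 119 of 125 WHITEHEAD members (95.2%). These are shares of listed combinations and not of RNA, and 7 of the BROAD members without the exon start after it. A 135 nt exon at 138579916 was internal in 51 WHITEHEAD members (40.8%). In BROAD names the same donor, 138580050, ended a first exon of 137 nt in 4 members. An exon of 1014 or 1019 nt, spliced to the acceptor 138572825, was in 48 BROAD members and in no WHITEHEAD member. A 258 nt form of the hub exon, with the donor 138571976, was in 28 WHITEHEAD members and in no BROAD member. The longest introns also differed: that of 13460 bp from the hub to 138585321 was in 12 BROAD and 6 WHITEHEAD members. Those of 11482 and 11477 bp, which skip the 94 nt exon, were in 27 BROAD members each and in no WHITEHEAD member.

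The 135 nt exon lies at an annotated start of Gm19705. Its donor is the donor of an annotated first exon of 78 nt, through the same 5270 bp intron, so counting back from that donor the 135 nt exon begins 57 nt before the annotated start. The RefSeq window around this start (GRCm38.p6 chr1:136683146-136683445, plus strand) is printed with the 2 bases before the 135 nt exon in capitals. They are AG, and a run of 18 T ends 11 nt before the exon. A run of 18 T or, on the other strand, 18 A is present in 0.916% of the 32851 windows of this length in the same table. The 137 nt BROAD exon begins at this AG, 59 nt before the annotated start.
RefSeq start window of Gm19705: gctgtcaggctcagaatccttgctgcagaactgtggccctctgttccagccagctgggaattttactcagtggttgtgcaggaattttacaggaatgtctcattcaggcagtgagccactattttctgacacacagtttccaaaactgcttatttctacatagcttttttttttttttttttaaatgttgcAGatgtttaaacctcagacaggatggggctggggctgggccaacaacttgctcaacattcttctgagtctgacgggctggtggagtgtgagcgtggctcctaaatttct

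The list held many isoforms, which combined the same sites in different ways. The 269 multi-exon members had 247 distinct chains of introns, of which 225 were carried by 1 member and 22 by 2, and 2 was the most. All 270 members differed from one another in their exact exons. Of the chains, 21 were present under both prefixes, which was 14.8% of the BROAD and 16.8% of the WHITEHEAD chains. BROAD members had 2 to 6 exons (median 5, quartiles 4 and 5) and a summed exon length of 273 to 2560 nt (median 1241 nt). WHITEHEAD members had 3 to 7 exons (median 6, quartiles 5 and 6) and 461 to 1532 nt (median 927 nt). In the rest of the list the median BROAD transcript had 2 exons and 345 nt and the median WHITEHEAD transcript 3 exons and 720 nt.

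The most complex members show how the exons combine. WHITEHEAD10355, with 885 nt, was 1 of 24 WHITEHEAD members with 7 exons, the most in the locus, and had the highest score of these, 126. It joined the 38 nt first exon to exons of 142, 139, 94, 135, 67 and 270 nt. WHITEHEAD6451, the longest WHITEHEAD member at 1532 nt, held the 258 nt hub exon, the 135 nt exon and the 773 nt last exon. BROAD31419, the longest BROAD member at 2560 nt, had 3 exons of 1693, 94 and 773 nt. BROAD31432, the shortest at 273 nt, joined the 137 nt first exon to a last exon of 136 nt.

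Each prefix listed every possible path through its own exons. Exons were taken as points and introns as links, and all routes from a first exon to a last exon were counted. The 20 BROAD exons allow 142 paths and the list holds 142, and the 19 WHITEHEAD exons allow 125 paths and the list holds 125. As few as 12 BROAD paths and 9 WHITEHEAD paths would use every exon and every intron at least once. The equal member counts of the 3 last exons and of the donor pair follow from such an enumeration. The number of members that carry a site is therefore a count of combinations and not a level of RNA.

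Complete listing was also usual for these prefixes elsewhere. Transcripts of 1 prefix were grouped by shared exons, and groups of at least 5 transcripts outside the locus were examined. All paths were listed in 94 of 95 BROAD groups (98.9%) and in 69 of 73 WHITEHEAD groups (94.5%), against 7 of 129 U groups (5.43%) and 1 of 8 FT groups. The most crowded locus of the list, on chromosome 13 with 783 transcripts, held all 180 paths of its BROAD group. Its WHITEHEAD group held 589 of 3871 paths. These shares are given as description, and chromosome 1 did not stand apart from the other BROAD and WHITEHEAD groups in this respect by these counts.

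**Figure D3:**
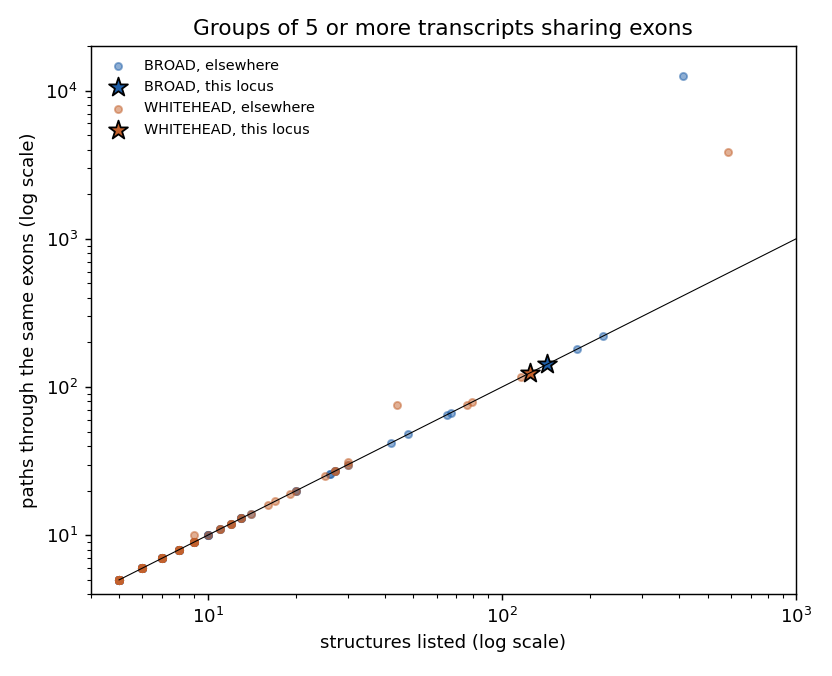
All paths through the same exons (vertical axis) against the structures listed (horizontal axis), both on log scales, for groups of at least 5 BROAD or WHITEHEAD transcripts; stars are the 2 groups of the chromosome 1 locus and the line marks equality. Both stars lie on the line, at 142 and 125, and 2 larger groups lie far above it, with 3871 and 12588 paths for 589 and 414 listed structures.

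The deposited scores were whole numbers and differed in scale between prefixes. BROAD scores ran from 1 to 69 (median 33, quartiles 9 and 55) and WHITEHEAD scores from 8 to 179 (median 85, quartiles 61 and 118). All U scores were 0. The highest BROAD score, 69, belonged to BROAD31369, with exons of 208, 145, 1019, 94, 67 and 266 nt. BROAD31319, with the 41 nt first exon, and BROAD31373, with the 144 nt exon in place of that of 1019 nt, followed at 67, tied with BROAD31379, which has the 142 nt hub exon, and BROAD31409, which has the 126 nt first exon. The highest WHITEHEAD score, 179, belonged to WHITEHEAD12056, with exons of 38, 142, 139, 94, 67 and 270 nt. WHITEHEAD11992, with the 128 nt first exon, followed at 177 and WHITEHEAD11484, with the 1839 bp intron shifted by 2 bp, at 161.

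Within a prefix every score was the sum of 1 value per intron. A least-squares fit of the scores on the introns carried left no residual above 1e-06 in 142 of 142 BROAD members (19 introns, 17 independent combinations) and in 125 of 125 WHITEHEAD members (16 introns, 13 combinations). The same held in all 185 BROAD groups and all 152 WHITEHEAD groups outside the locus that have more transcripts than independent combinations, with 1990 and 1694 transcripts. Among FT groups it held in 78 of 131 (59.5%). The sources used here do not say what the value counts. A score thus adds up along the transcript, and all but 1 of the BROAD and WHITEHEAD introns are carried by more than 1 member.

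**Figure D4:**
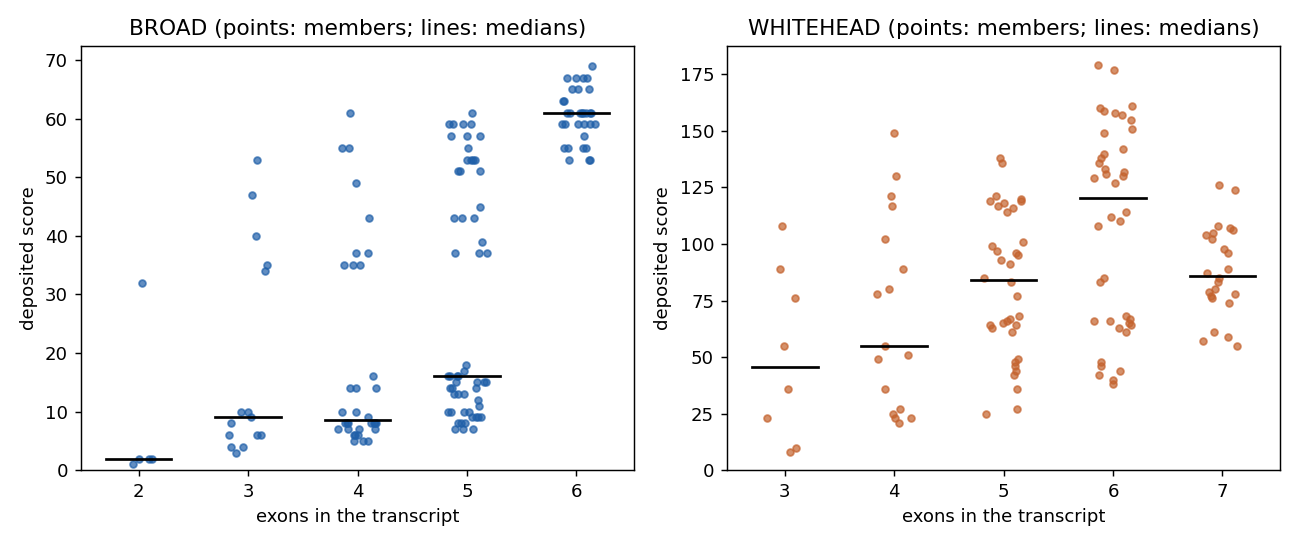
Deposited score of each BROAD (left) and WHITEHEAD (right) member against its number of exons, with the median of each exon number as a line. BROAD medians are 2, 9, 8.5, 16 and 61 for 2 to 6 exons, and WHITEHEAD medians 45.5, 55, 84, 120.5 and 86 for 3 to 7 exons.

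The sums fix some intron values outright. In BROAD names the 5270 bp intron had the value 32, the highest of those fixed, although 3 members carried it. The introns of 1336 and 1726 bp, in 47 members each, had values of 2 and 8. The introns of 11482 and 11477 bp, in 27 members each, had values of 2 and 1, and those of 4304 and 5040 bp had 2 each. In WHITEHEAD names 2 introns were fixed, that of 1336 bp at 13 and that of 1726 bp at 41. The 1726 bp intron, which leads to the last exon printed above, thus had the larger value of the pair in both prefixes. The remaining introns are known only within a range, because an amount added before certain internal exons can be taken off after them. The ranges assume that no value is below 0.

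**Figure D5:**
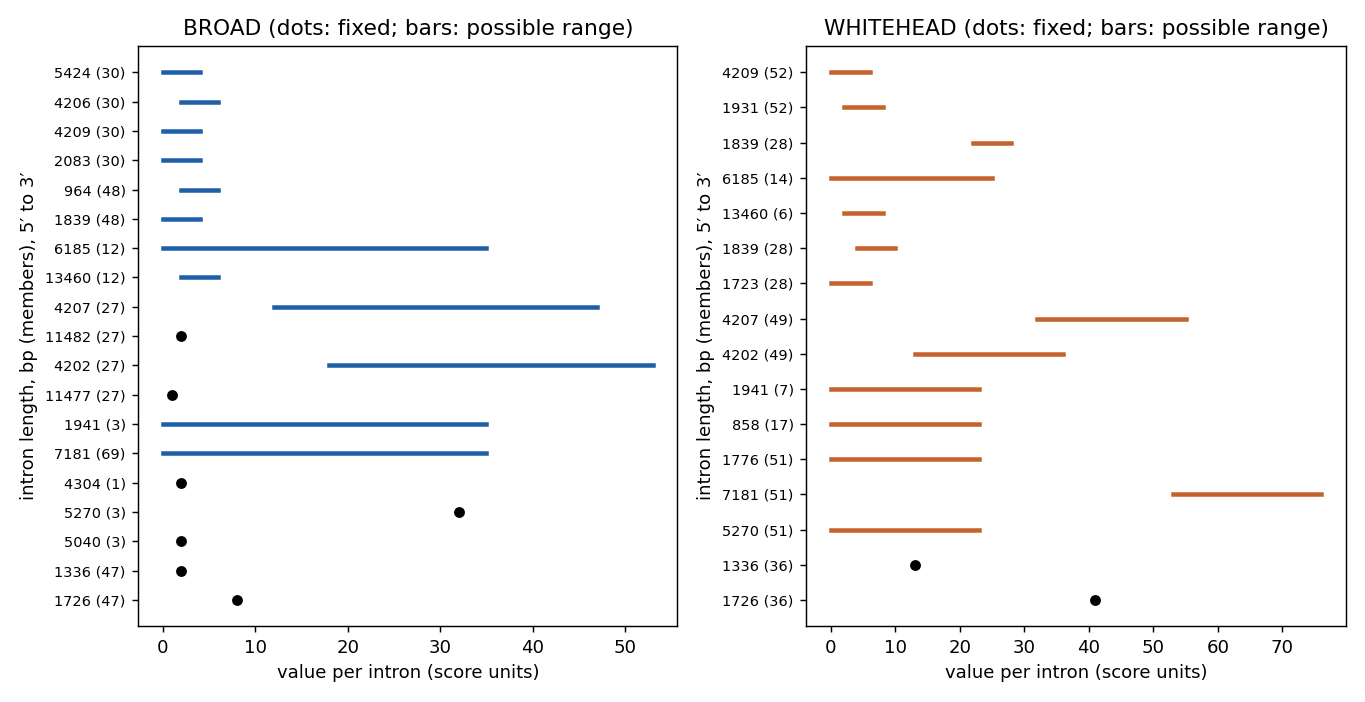
Value per intron in score units, BROAD left and WHITEHEAD right, introns in order from 5′ to 3′ and named by length with their number of members; dots are fixed values and bars the possible range. In BROAD names the 5270 bp intron is fixed at 32 with 3 members, and the introns of 11482 and 11477 bp at 2 and 1 with 27 members each.

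BROAD members with the 94 nt exon had higher scores than those that skip it. BROAD31417 joined the 1688 nt exon through the 94 nt exon to the 773 nt exon and had a score of 47. BROAD31418 skipped the 94 nt exon and had a score of 2. With the 1693 nt exon the scores were 53 for BROAD31419 and 1 for BROAD31420. All 69 BROAD members with the exon scored 35 to 69, and the 66 that start before it and skip it scored 1 to 18, so the groups did not overlap. The 7 that start after it scored 2 to 40. WHITEHEAD members with the exon scored 23 to 179 (119 members), and the 6 without it scored 8 to 51, so these groups overlapped. Because scores are sums over shared introns, no test was made.

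The order of the close donors 138573838 and 138573843 differed between prefixes and, in BROAD names, between acceptors. With the acceptor 138585321 the upstream donor was higher in BROAD names, at 2 against 1, and no WHITEHEAD member had these introns. With the acceptor 138578046 the orders were as follows. The intron of 4202 bp, from 138573843, was 6 above the intron of 4207 bp, from 138573838, in BROAD names (18 to 53 against 12 to 47, moving together). In WHITEHEAD names it was 19 below (13 to 36 against 32 to 55). At the close acceptors after the 138567509 donor, the 4206 bp intron was 2 above the 4209 bp intron in BROAD names. The WHITEHEAD intron of 1839 bp between the upstream pair of sites ranged from 22 to 28, that between the pair shifted by 2 bp from 4 to 10, and that of 1723 bp from 0 to 6. The WHITEHEAD members that begin at 138576045 differed by the 135 nt exon. WHITEHEAD8278 ran from the 94 nt exon straight to the 773 nt exon and scored 76, while WHITEHEAD4686, which includes the 135 nt exon, scored 23.

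Where the same chain of introns was listed under both prefixes, the WHITEHEAD score was higher in 21 of 21 chains. The ratio of WHITEHEAD to BROAD score ranged from 1.33 to 3.5 with a median of 2.43. The smallest ratio was that of the 4209 and 13460 bp introns (BROAD31346 at 6, WHITEHEAD2228 at 8). The largest was that of the same introns followed by that of 1726 bp (BROAD31386 at 14, WHITEHEAD6927 at 49). None of these chains holds the 5270 bp intron, which went the other way, at 32 in BROAD names and 0 to 23 in WHITEHEAD names. The scale of the scores may differ between prefixes, so the ratio is no difference in expression, and the chains share introns.

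The 3 U members were short and 2 of them shared introns or splice sites with the other members. U116570-1 (138580006 to 138587382, 381 nt) had exons of 45, 67 and 269 nt and the same intron chain as BROAD31435, which scored 40. U089128-1 (138573050 to 138573772, 287 nt) spliced a 214 nt exon over 436 bp to the acceptor 138573700. An intron of this length is annotated in Gm19705. U339624-1 (138583054 to 138583733) was a single exon of 680 nt that lay within introns of the other members.

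Both opposite-strand transcripts within 2 kb lay inside the interval. WHITEHEAD81705 (138572635 to 138577163, score 8) had exons of 403 and 111 nt and an intron of 4015 bp. U191377-1 (138572639 to 138572970) was a single exon of 332 nt within the 403 nt exon. All 403 and all 332 bases lay inside the region covered by long BROAD exons. Exons over at least a part of them were in 60 BROAD members, no WHITEHEAD member and no U member. The 12 BROAD members that begin at 138572151 covered all of these bases, and the 48 with the acceptor 138572825 covered only a part. The 111 nt exon overlapped no exon of a member. The 5′ end of U191377-1 faced that of U089128-1 at 80 bp and that of 14 WHITEHEAD members at 625 bp. No member began within 2000 bp of the 5′ end of WHITEHEAD81705, 138577163, on the side of higher positions. On the side of lower positions, within its intron, 7 WHITEHEAD members began at 138576045 and 3 BROAD members at 138575660. Since strand was marked in the libraries, plus-strand and minus-strand reads can be told apart in principle, but the sources used here do not say how transcripts were assigned to strands.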

How the data were processed

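RNA from mouse embryonic stem cells was sequenced as 1 polyadenylated and 1 ribosomal-depleted library. The deposited file is 1 BED list with 12 columns for the whole series; per the file headers it is an initial pool on mm9. TopHat is named in the submitters' processing notes without a version. The sources used here do not say how transcripts were assembled, merged or scored. Each score is a whole number, taken as the authors deposited it. Positions are printed counted from 1, and those without a build named are on mm9.

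Blocks with gaps under 30 bp were joined, and ends at most 50 bp apart were chained. Paths were counted over exact exons. Scores were fitted on introns without a constant (tolerance 1e-06), and ranges of intron values came from linear programming with values of at least 0 (Python 3.11.15, numpy 2.4.6, scipy 1.17.1). Path counting and the fit were tested on simulated data. Gene names and exon sequences came from GENCODE M21 (GRCm38) and start windows from RefSeq (GRCm38.p6). Sequences at mm9 positions were not used here. The locus, the features described and the alternatives were chosen with earlier results of these data known. Introns, ends and members were named by rank: those in the most members, the longest, and those with the highest scores. The path count, the sum of intron values and members with the lowest scores were added after the list was seen. No test between samples was made, since the list separates no library.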

Additional observations from a re-analysis of the deposited data

How the results depend on the processing

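Of 38 alternatives, 36 left their value within the limits set, counts within 1.5 times, shares within their Wilson interval and medians within 1 SD over members. Some of these could not have moved. The shortest intron is 436 bp, so joining gaps under 50 bp removes none. The interval ends at the outermost members, so all 270 lie wholly inside it. Sums that are exact over all members stay exact in those with 5 or fewer exons. Joining gaps under 10 or under 50 bp in place of 30 bp changed none of the counts of introns, chains, paths and exact sums. Leaving out chains contained in a longer chain lowered the 247 intron chains to 155. Searching the annotation for runs of 2 introns and 2 exons in place of intron, exon and intron matched 0 members in place of 38. This 0 was fixed by the annotated introns and is no check of the name. The name Gm19705 rests on runs with a single internal exon and on intron lengths. With ends of introns allowed to differ by 5 bp, the 25 introns became 21 and the shared BROAD introns rose from 57.9% to 63.2%. With 5′ ends at most 100 bp apart chained, the 13 ends became 11. The starts of the 208 nt BROAD and 128 nt WHITEHEAD first exons, 80 bp apart, then fell together. The alternatives on paths and sums were chosen after seeing the data. No paired analysis was possible because each library is a single sample and the list separates neither. Depth is unknown, and the score is no read count by any source used here, so no limit of detection can be given.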
